A study of Homo sapiens with 6 samples.

Results

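The ATF4 arm of the integrated stress response was followed through 10 genes chosen by symbol, out of 16655 genes in the deposited table: ATF4, DDIT3, TRIB3, ASNS, CHAC1, SESN2, DDIT4, PSAT1, PPP1R15A and VLDLR. All 10 were present and all 10 passed the filter on low counts, which left 13002 genes for testing. The integrated stress response is a common reaction of cells to unfolded protein in the endoplasmic reticulum, lack of amino acids, lack of heme or double-stranded RNA. Each of these signals activates a kinase that phosphorylates the translation factor eIF2, general translation slows, and the mRNA of the transcription factor ATF4 is translated more efficiently. ATF4 then switches on genes for amino acid supply, for restraint of growth signalling and, under lasting stress, for cell death, so that its activity is read from its targets rather than from its own mRNA.

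RNA was measured in HEK-293T, an established line of human embryonic kidney origin in which the large T antigen of SV40 is expressed. The cells of every library were transfected with a plasmid by lipofection and harvested 24 h later. The control cells received the empty pEGFP-C1 vector and made GFP (n = 3 libraries). The others received the same vector with reflectin A1, a squid protein that forms condensates in the cytoplasm, fused to GFP (RfA1, n = 3 libraries). Both groups therefore went through lipofection and carried a GFP plasmid, and no untransfected cells were included. The comparison is between cells with RfA1 fused to GFP and cells with GFP alone. An effect of RfA1 cannot be told apart here from a difference in plasmid uptake or in the amount of GFP made. Nothing in the labels says that the libraries of a group came from separate cultures, so the p-values measure the spread between these libraries, which may be technical. Reads from the plasmid inserts, GFP and RfA1, were not analysed here. In bulk RNA, a change in a share of the cells and a change of the RNA per cell cannot be told apart.

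The total depth was 10272306 to 11566284 estimated counts per library. Of the genes fixed as typical of this cell line, VIM, KRT8, KRT18, NEFL, NEFM and PAX2 were detected in every library. PTPRC, ALB, MYH7 and DCN, which mark blood, liver, heart muscle and connective tissue, stayed at or below 0.62 TPM, while COL1A1 was present at 8.2 to 10.1 TPM. RfA1 replicate 2 stood apart from its group. On the first principal component, which held 44.6% of the variance and followed the GC content of the transcripts (Spearman's rho 0.74 between loadings and GC content, across genes, which are not independent replicates), it scored 10.1, while RfA1 replicates 1 and 3 scored -16.5 and -22. GFP replicates 1, 2 and 3 scored -2.18, 18.2 and 12.3. For this reason the values of the ATF4 arm are also given without RfA1 replicate 2 and after a correction of each library for GC content.

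Sequences are shown for the short element through which ATF4 acts. ATF4 pairs with a C/EBP protein and binds the C/EBP-ATF response element, whose core TGATGNAA was searched on both strands (TTNCATCA on the other strand) from 250 bases before to 50 bases after each transcription start of the RefSeq promoter table (GRCh38.p14). All 10 genes had an entry in that table, and 2 of the 10 genes held the core in at least 1 of their promoters, against 4.46% of all genes of that table and 3.21% of those that are also in the expression table. Counted by promoter, 3.62% of all 35116 held it. Both are shown on the strand of the gene with the core in capitals. The ASNS element lies 60 bases upstream of one of the gene's 2 annotated starts, at chr7:97872458-97872487 on the minus strand. The CHAC1 element lies 201 bases upstream of the start, at chr15:40953251-40953280 on the plus strand, with the core on the opposite strand.
ASNS: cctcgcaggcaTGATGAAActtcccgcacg
CHAC1: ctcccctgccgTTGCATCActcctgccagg
A match describes the letters in this window only.

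The ATF4 arm did not move as a block in RfA1 cells. With edgeR's quasi-likelihood test, 0 of the 10 genes had an adjusted p below 0.05, and 0.0769% of all tested genes did. The count was also 0 with DESeq2 and with limma-trend on TPM, which called 0.254% and 0.0308% of all tested genes. It was 2 after the GC correction, which called 1.45% of all tested genes, and 2 (a different pair) without RfA1 replicate 2, where 20.1% of all tested genes were called. Without adjustment, 3 of the 10 genes fell below 0.05, as did 13.9% of all tested genes (7.3% higher and 6.64% lower with RfA1, or 8.4% and 4.18% with limma-trend on TPM). The 3 genes went in different directions, since PPP1R15A and DDIT4 were higher with RfA1 and CHAC1 was lower. The median log2 fold change of the 10 genes was -0.019, with 5 positive and 5 negative values, against -0.0024 over all tested genes. The same 3 genes were also those in which no RfA1 library overlapped with any GFP library, a state found in 17.9% of all tested genes (9.86% with RfA1 higher and 8.01% with RfA1 lower). With 3 libraries against 3, an exact permutation test of a single gene cannot go below p = 0.1, the value that each of these 3 genes reached.

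**Figure D1:**
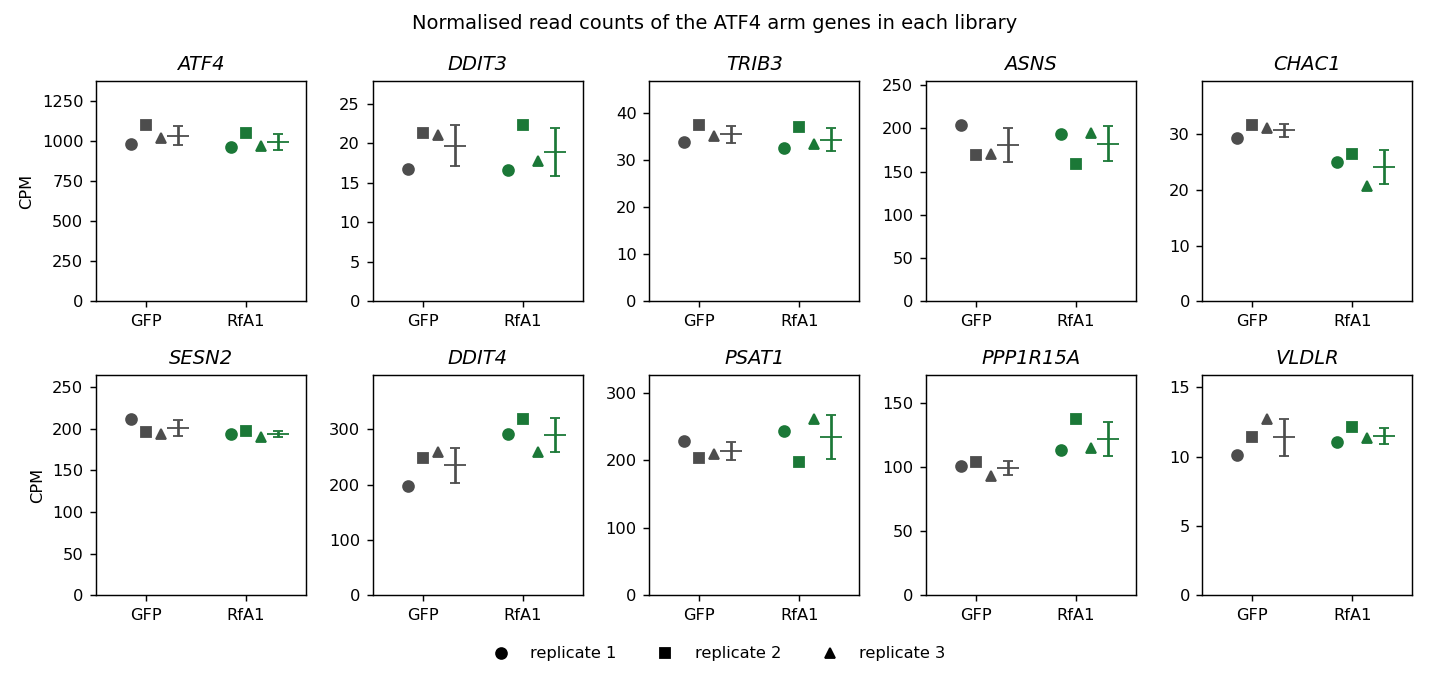
Normalised read counts (CPM, y axis from 0) of each of the 10 genes in the 3 GFP and 3 RfA1 libraries, with symbols for the replicate number and a bar for the mean ± SD of each group. PPP1R15A and DDIT4 lie higher and CHAC1 lower in all 3 RfA1 libraries, and the groups of the other 7 genes overlap.

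ATF4 itself is the transcription factor of the pathway (Gene ID 468). Expression is given as CPM, the counts scaled to a common library size with TMM normalisation. ATF4 was measured at 982, 1099 and 1020 CPM in GFP replicates 1 to 3 and at 962, 1052 and 967 CPM in RfA1 replicates 1 to 3. The groups overlapped, with RfA1 replicate 2 above 2 of the 3 GFP libraries. The mean was 1034 ± 59.8 CPM (SD, n = 3) in GFP cells and 994 ± 50.1 CPM (SD, n = 3) in RfA1 cells. The log2 fold change was -0.057 with a 95% interval of -0.23 to 0.11 (adjusted p = 0.745 by the same edgeR test, with the Benjamini-Hochberg method over all tested genes). As TPM, which divides the reads by transcript length and fixes the total of each library, ATF4 stood at 1199 ± 38.6 in GFP and 1201 ± 10.2 in RfA1 cells (SD, n = 3 each). The table holds no measure of ATF4 protein, the level at which the pathway is mainly controlled.

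DDIT3 and TRIB3 are targets that act late in the response. DDIT3, also called CHOP, is a transcription factor that pairs with C/EBP proteins and favours cell death under lasting stress. It was measured at 16.7, 21.4 and 21.0 CPM in GFP replicates 1 to 3 and at 16.7, 22.3 and 17.7 CPM in RfA1 replicates 1 to 3. Low and high libraries occurred in both groups, and the log2 fold change was -0.062 (95% interval -0.36 to 0.24, adjusted p = 0.852 from edgeR's test). Its exons overlap on the opposite strand with those of MARS1 and MBD6, both in the table, and the sources used here do not say whether the counting used strand, so some of its reads may belong to these neighbours. The annotation also has a protein-coding gene on the same strand, AC022506.1, that overlaps with DDIT3, and a non-coding transcript, AC079781.5, that overlaps with ASNS on its strand. Neither has a row in the table, and a count by strand would not separate them. TRIB3 encodes a pseudokinase that binds ATF4 and dampens its activity. It was measured at 33.9, 37.5 and 35.2 CPM in GFP cells and at 32.6, 37.2 and 33.4 CPM in RfA1 cells. The groups overlapped here too, with a log2 fold change of -0.048 (95% interval -0.25 to 0.16, adjusted p = 0.830 from edgeR's test).

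PPP1R15A, also called GADD34, closes the feedback loop of the pathway. It brings protein phosphatase 1 to eIF2, removes the phosphate and restores translation. Its level was 101, 104 and 93.0 CPM in GFP replicates 1 to 3 and 113, 138 and 115 CPM in RfA1 replicates 1 to 3. All 3 RfA1 libraries were above all 3 GFP libraries, and RfA1 replicate 2 was the highest. Mean levels were 99.1 ± 5.57 CPM (SD, n = 3) in GFP cells and 122 ± 13.6 CPM (SD, n = 3) in RfA1 cells, for a fold change of 1.23 (95% interval 1.07 to 1.42). The log2 fold change was 0.30 (standard error 0.094, unadjusted p = 0.00788, adjusted p = 0.254 from edgeR's test), which did not pass. Without RfA1 replicate 2 it was 0.21 (adjusted p = 0.0573 from edgeR's test). PPP1R15A stood at 0.42 after the GC correction and passed (adjusted p = 0.00315 from edgeR's test), in a fit that called 189 of all tested genes. In TPM it was 66.3, 64.9 and 59.9 in GFP cells and 78.1, 86.7 and 80.1 in RfA1 cells, again without overlap.

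CHAC1 encodes an enzyme that breaks down glutathione and is one of the genes that respond most to ATF4 and DDIT3. It was measured at 29.2, 31.6 and 31.1 CPM in GFP replicates 1 to 3 and at 24.9, 26.5 and 20.7 CPM in RfA1 replicates 1 to 3. Every RfA1 library was below every GFP library, and RfA1 replicate 3 was the lowest. The mean was 30.6 ± 1.24 CPM (SD, n = 3) in GFP cells and 24.0 ± 3.01 CPM (SD, n = 3) in RfA1 cells, which is 0.785 times the level (95% interval 0.664 to 0.927). The log2 fold change was -0.35 (standard error 0.11, unadjusted p = 0.00812, adjusted p = 0.254 from edgeR's test). Without RfA1 replicate 2 it was -0.42 and passed (adjusted p = 0.0115 from edgeR's test), but that fit called 20.1% of all tested genes. With the GC correction, CHAC1 stood at -0.19 (adjusted p = 0.305 from edgeR's test). The GC content of its transcript, 62.6%, was the highest among the 10 genes, whose range started at 42.3%, and the part of GC content in its lower level was not tested beyond this correction.

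DDIT4 and SESN2 restrain growth by inhibiting the kinase complex mTORC1, DDIT4 (also called REDD1) in response to several stresses and SESN2 as a sensor of leucine. DDIT4 was measured at 198, 248 and 258.5 CPM in GFP replicates 1 to 3 and at 292, 319 and 259.1 CPM in RfA1 replicates 1 to 3. The groups did not overlap, but GFP replicate 3 and RfA1 replicate 3 were almost level, and GFP replicate 1 lay well below the other libraries. The mean was 235 ± 32.3 CPM (SD, n = 3) in GFP cells and 290 ± 30 CPM (SD, n = 3) in RfA1 cells, a fold change of 1.23 (95% interval 1.04 to 1.46). The log2 fold change was 0.30 (standard error 0.11, unadjusted p = 0.0187, adjusted p = 0.294 from edgeR's test), 0.19 without GFP replicate 1 (adjusted p = 0.342) and 0.23 without RfA1 replicate 2 (adjusted p = 0.0809). With the GC correction, DDIT4 stood at 0.42 and passed (adjusted p = 0.00341 from edgeR's test). Exons of DDIT4 overlap with the antisense gene DDIT4-AS1, and without a stated strand setting the reads of the pair cannot be told apart.

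SESN2, in contrast, varied little. Its level was 212, 197 and 194 CPM in GFP replicates 1 to 3 and 194, 198 and 190 CPM in RfA1 replicates 1 to 3. Its highest library was only 1.12 times its lowest, the smallest ratio among the 10 genes, and its log2 fold change was -0.052 (95% interval -0.22 to 0.11, adjusted p = 0.766 from edgeR's test).

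ASNS and PSAT1 are enzymes of amino acid synthesis. ASNS makes asparagine, and PSAT1 catalyses a step of serine synthesis. ASNS was measured at 204, 169 and 170 CPM in GFP replicates 1 to 3 and at 193, 159 and 195 CPM in RfA1 replicates 1 to 3. The spread within each group was wide and the means were nearly equal, at 181 ± 19.8 and 182 ± 20.4 CPM (SD, n = 3 each). This gave a log2 fold change of 0.0097 (95% interval -0.22 to 0.24, adjusted p = 0.970 from edgeR's test).

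PSAT1 was measured at 229, 204 and 209 CPM in GFP cells and at 243, 198 and 261 CPM in RfA1 cells. RfA1 replicate 2 was its lowest library and RfA1 replicates 1 and 3 were its highest. Over all 6 libraries its log2 fold change was 0.13 (95% interval -0.10 to 0.36, adjusted p = 0.567 from edgeR's test). Without RfA1 replicate 2 it was 0.24 and passed (adjusted p = 0.0282 from edgeR's test), in a fit that called 20.1% of all tested genes. Without RfA1 replicate 3 the log2 fold change was 0.044. With the GC correction, PSAT1 stood at 0.050. ASNS and ATF4 were the 2 genes of the arm with fractional counts in all 6 libraries, and the other genes of the arm had whole counts. All of these values were deposited as estimated counts, so a whole count does not show that a gene was counted directly.

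VLDLR is a receptor for lipoproteins at the cell surface. It was measured at 10.1, 11.4 and 12.7 CPM in GFP replicates 1 to 3 and at 11, 12.1 and 11.3 CPM in RfA1 replicates 1 to 3. All 3 RfA1 libraries fell within the range of the GFP libraries. It had 112 to 144 counts per library. The log2 fold change was 0.011 (95% interval -0.27 to 0.29, adjusted p = 0.971 from edgeR's test). As with DDIT4, its reads cannot be told apart from those of its antisense gene, VLDLR-AS1.

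**Figure D2:**
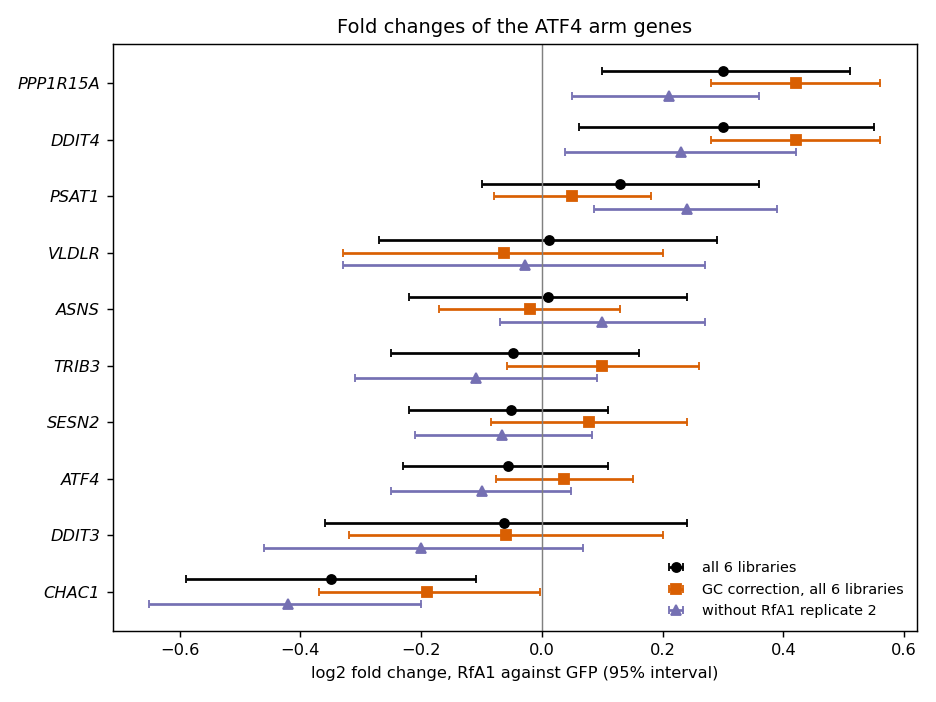
Log2 fold change between RfA1 and GFP cells (x axis) of the 10 genes with its 95% interval, from all 6 libraries, from all 6 libraries after a correction for GC content, and without RfA1 replicate 2. The intervals of PPP1R15A, DDIT4 and CHAC1 leave out 0 in all 3 fits, that of PSAT1 without RfA1 replicate 2, and those of the other 6 genes include 0 in all 3.

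The precision of each value is given by its interval. In the fit of all 6 libraries, the upper end of the 95% interval of the log2 fold change was 0.11 for ATF4 and SESN2, 0.16 for TRIB3, 0.24 for ASNS and DDIT3, 0.29 for VLDLR and 0.36 for PSAT1. Other fits reached further. The upper end was 0.26 for TRIB3 and 0.24 for SESN2 with the GC correction and 0.42 for VLDLR without GFP replicate 3. It was 0.44 for PSAT1 and 0.34 for ASNS without GFP replicate 1, and 0.36 for DDIT3 and 0.19 for ATF4 without GFP replicate 2. For CHAC1 it was -0.11 with all 6 libraries, but -0.0026 with the GC correction and -0.0053 without RfA1 replicate 3, both close to no change.

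The libraries differed along an axis that crossed the groups. ASNS and PSAT1 had their 3 highest values in GFP replicate 1 and RfA1 replicates 1 and 3. ATF4, DDIT3, TRIB3 and VLDLR had their 3 lowest values in the same libraries. Together these were 6 of the 10 genes, and 40% of all tested genes showed this order in one direction or the other. The same 3 libraries scored below 0 on the first principal component, which was itself computed from all tested genes, these included. The transcripts of PSAT1 and ASNS had a GC content of 42.3% and 47.0%, and those of ATF4 and TRIB3 of 56.7% and 60.9%, with a median of 48.7% over all tested genes. DDIT3, at 49.7%, lay just above that median, and VLDLR, at 42.7%, did not follow that order. PPP1R15A, DDIT4, CHAC1 and SESN2 were ordered differently.

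**Figure D3:**
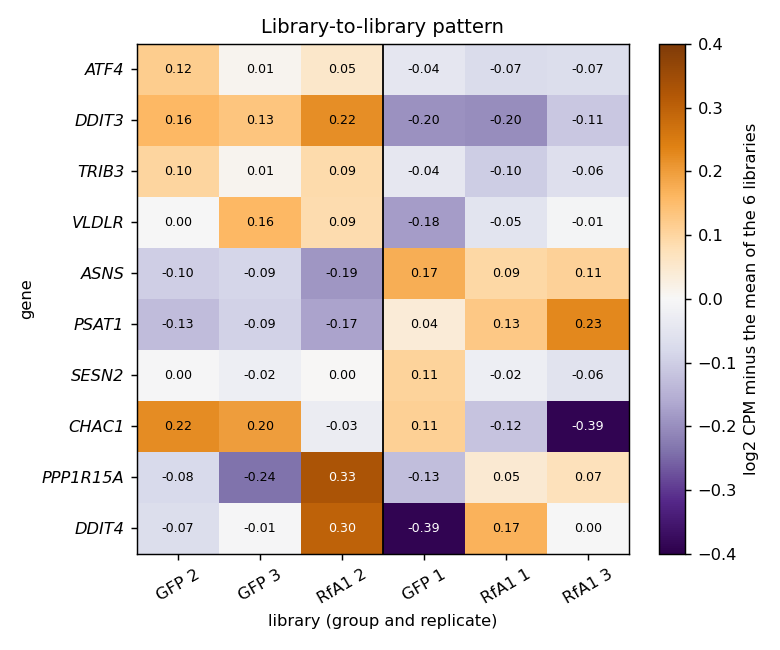
Log2 CPM of each of the 10 genes in each library, minus the gene's mean over the 6 libraries (colour and printed value). The vertical line separates the libraries with scores above 0 on the first principal component (left) from those below 0 (right), and ATF4, DDIT3, TRIB3 and VLDLR are lower, ASNS and PSAT1 higher, on the right.

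The genes whose levels followed ATF4 most closely over the 6 libraries, by Euclidean distance of centred log2 CPM among 12292 genes, were TPCN1, PES1 and UROD, at distances of 0.0282, 0.0372 and 0.0409 against a median of 0.38. For DDIT3 they were MRC2, TMEM132A and TWF2, at 0.042, 0.0584 and 0.063 against a median of 0.537. Neither set held a gene of the ATF4 arm. With 6 libraries, close matches among so many genes are a description only.

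On the TPM scale, which allows levels of different genes to be compared, the arm spanned a wide range. ATF4 was the highest in every library, at 1167 to 1242 TPM, above 99.2% of all tested genes. DDIT4 followed at 187 to 288 TPM, PSAT1 at 136 to 198 and ASNS at 113 to 156. Their ranges overlapped from one gene to the next, yet DDIT4 was above PSAT1 and PSAT1 above ASNS within each of the 6 libraries. SESN2 at 81.5 to 92.6 TPM and PPP1R15A at 59.9 to 86.7 TPM changed places, as SESN2 was higher in 5 libraries and PPP1R15A in RfA1 replicate 2. DDIT3 (33.4 to 42.9 TPM) and CHAC1 (23.8 to 33.5 TPM) overlapped narrowly but kept their order in all 6 libraries. TRIB3 came next at 21.6 to 23.3 TPM. VLDLR was by far the lowest, at 1.58 to 1.95 TPM, above 11.1% of all tested genes.

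**Figure D4:**
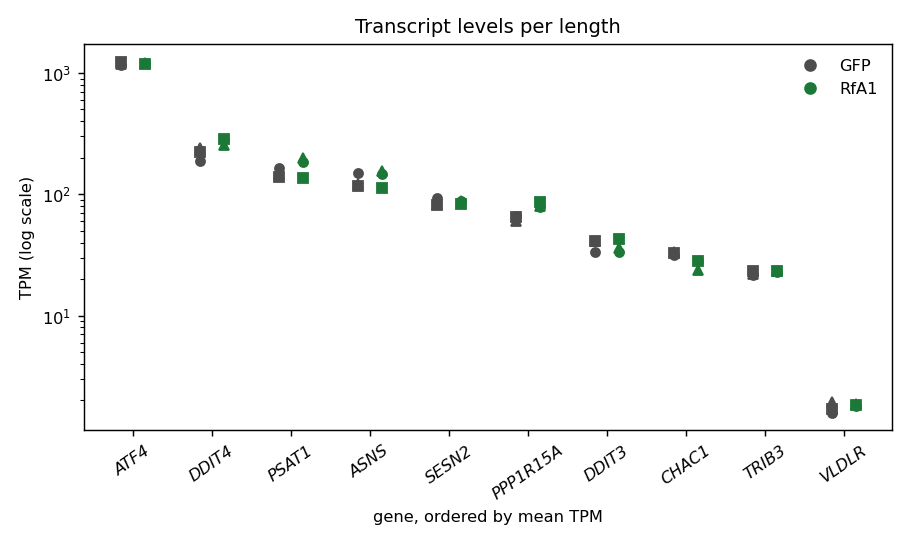
Transcript levels per length (TPM, logarithmic axis) of the 10 genes in each GFP and RfA1 library, ordered by mean TPM, with the symbols of the replicates as circle (1), square (2) and triangle (3). ATF4 lies at 1167 to 1242 TPM and VLDLR at 1.58 to 1.95 TPM, with DDIT4, PSAT1 and ASNS next below ATF4.

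Further genes of the pathway were taken from lists written by hand, with the members left out. Of 48 such genes, 47 were tested. GDF15, a secreted stress factor, was at 3 to 7 counts per library and did not pass the filter. In the test of all 6 libraries, 1 of the 47 genes passed the adjusted p, and 11 passed an unadjusted p of 0.05 (8 higher and 3 lower with RfA1), 23.4% against 13.9% of all tested genes. Their median log2 fold change was 0.023. The count of 11 moved with the libraries, and so did the share of all tested genes. It was 26 without RfA1 replicate 2, where 34.9% of all tested genes passed the unadjusted p. It was 4 without RfA1 replicate 1 or RfA1 replicate 3 (6.7% and 6.82% of all tested genes) and 5 without GFP replicate 2 or GFP replicate 3 (6.55% and 7.45%). After the GC correction it was 17 (16% of all tested genes). The number past the adjusted p was 3 after the GC correction (ATF3, CDKN1A and the amino acid transporter SLC7A5), which called 1.45% of all tested genes. It was 17 without RfA1 replicate 2 (10 higher and 7 lower), where 20.1% of all tested genes were called. These 17 included NUPR1, EIF2AK3, EIF2S1, EIF2S2, MTHFD2, PHGDH, ALDH18A1, SLC6A9, SLC7A1 and SLC1A5, which did not pass in the test of all 6 libraries.

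The gene that passed was ATF3, a transcription factor that ATF4 induces but that growth factor and MAP kinase signalling induce as well. It was measured at 116, 110 and 110 CPM in GFP replicates 1 to 3 and at 173, 183 and 171 CPM in RfA1 replicates 1 to 3. It rose by 0.64 on the log2 scale (standard error 0.076) and passed edgeR's test with an adjusted p = 0.0109. With 1 library left out, the adjusted p of ATF3 ranged from 9.86e-05 to 0.213, and it missed the threshold without GFP replicate 1, 2 or 3 or RfA1 replicate 1 (adjusted p = 0.0676, 0.141, 0.213 and 0.0958 from edgeR's test), while its log2 fold change stayed between 0.62 and 0.67. The fits in which ATF3 missed called 0 to 2 of all tested genes. The fit without RfA1 replicate 2, which gave 9.86e-05, called 20.1%. Of the other 7 transcription regulators in that list, 0 passed the adjusted p and 1 passed the unadjusted p (edgeR's test). It was NUPR1, a small stress-induced chromatin protein that is named here because of this count, with a log2 fold change of -0.36 (adjusted p = 0.321) and an overlap between the groups. Without RfA1 replicate 2, NUPR1 stood at -0.55 and passed (adjusted p = 0.00342 from edgeR's test), in a fit that called 20.1% of all tested genes. With the GC correction NUPR1 was at -0.35 (adjusted p = 0.197 from edgeR's test).

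Upstream of ATF4, the list of eIF2 kinases, eIF2 and eIF2B subunits and the second phosphatase partner held 13 tested genes, with a median log2 fold change of 0.078. At an unadjusted p of 0.05, 3 of the 13 passed and were higher, and 0 were lower, against 7.3% and 6.64% of all tested genes. The count in either direction was 0 without RfA1 replicate 1 or 3 (6.7% and 6.82% of all tested genes) and 1 without GFP replicate 2 or 3 (6.55% and 7.45%). Without RfA1 replicate 2 it was 7 (34.9% of all tested genes), of which all but EIF2B2 and EIF2B4 were higher. The 3 genes from all 6 libraries were EIF2AK3, also called PERK, and EIF2S1 and EIF2S2, subunits of eIF2. PERK is the kinase that senses unfolded protein in the endoplasmic reticulum. EIF2AK3 was measured at 17.0, 14.3 and 16.7 CPM in GFP cells and at 20.6, 17.6 and 21.8 CPM in RfA1 cells, without overlap. Its log2 fold change was 0.32 (adjusted p = 0.297 from edgeR's test). EIF2S1 had a log2 fold change of 0.31 and EIF2S2 of 0.22 (adjusted p = 0.297 and 0.329 from the same test), and both overlapped between the groups.

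Among 9 enzymes of amino acid and one-carbon metabolism other than ASNS and PSAT1, 2 had a positive log2 fold change, against 6439 of the 13002 tested genes, and the median was -0.11. At an unadjusted p of 0.05, 1 was higher and 1 was lower, against 7.3% and 6.64% of all tested genes. The count in either direction was 0 without GFP replicate 2 or 3 (6.55% and 7.45% of all tested genes) or RfA1 replicate 1 or 3 (6.7% and 6.82%). Without RfA1 replicate 2 it was 7 (34.9% of all tested genes), of which all but MTHFD2 and ALDH18A1 were lower. MTHFD2, a mitochondrial folate enzyme, had a log2 fold change of 0.25, PHGDH, which catalyses the first step of serine synthesis, one of -0.17, and ALDH18A1, of proline synthesis, one of 0.19 (adjusted p = 0.308, 0.354 and 0.361 from edgeR's test). PHGDH and PSAT1 thus lay on opposite sides of 0 within the serine pathway, with neither past the threshold.

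Of 8 amino acid transporters, 4 had a positive log2 fold change, the median was -0.048, and 1 was higher and 1 lower at an unadjusted p of 0.05, with the same shares of all tested genes as above. With any 1 library other than RfA1 replicate 2 left out, 1 transporter passed, as did 6.55% to 17.2% of all tested genes. Without RfA1 replicate 2 it was 4 (34.9% of all tested genes), with SLC7A1 and SLC38A2 higher and SLC6A9 and SLC1A5 lower. SLC6A9, a glycine transporter, was measured at 31.4, 31.7 and 31.5 CPM in GFP cells and at 26.8, 26.6 and 24.5 CPM in RfA1 cells, without overlap. Its log2 fold change was -0.28 (adjusted p = 0.262 from edgeR's test). SLC7A1, which carries arginine and lysine, had a log2 fold change of 0.20, and SLC1A5, which carries glutamine, one of -0.14 (adjusted p = 0.346 and 0.455 from the same test).

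Among 9 secreted factors and other targets, 8 had a positive log2 fold change, against 6439 of the 13002 tested genes, and the median was 0.10. At an unadjusted p of 0.05, 2 passed, both higher, against 7.3% of all tested genes. Without RfA1 replicate 2, 4 passed, of which all but FGF21 were higher, and 34.9% of all tested genes passed. CDKN1A, the cell cycle inhibitor p21, was measured at 21.8, 26.9 and 28.3 CPM in GFP cells and at 33.5, 32.7 and 33.5 CPM in RfA1 cells. TXNIP, an inhibitor of thioredoxin, was measured at 23.4, 20.1 and 24.5 CPM in GFP cells and at 33.5, 25.3 and 32.8 CPM in RfA1 cells. Neither gene overlapped between the groups, and their log2 fold changes were 0.37 and 0.43 (adjusted p = 0.250 for each from edgeR's test). After the GC correction CDKN1A was at 0.49 and passed, and TXNIP was at 0.37 (adjusted p = 0.0101 and 0.0578 from edgeR's test). Without RfA1 replicate 2 both passed, at 0.38 and 0.55 (adjusted p = 0.0206 and 0.00288 from edgeR's test), in a fit that called 20.1% of all tested genes. The value for VEGFA, a growth factor for vessels, was 0.17 (adjusted p = 0.404 from the same test). CDKN1A and TXNIP are also controlled by other pathways.

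Beside the ATF4 arm, the unfolded protein response runs through ATF6 and XBP1, which act on chaperones and degradation factors of the endoplasmic reticulum. Of 20 such genes, 8 passed an unadjusted p of 0.05, all 8 higher with RfA1, and 0 passed the adjusted p in edgeR's test, with a median log2 fold change of 0.11. Among all tested genes, 7.3% were higher at that p. The count in either direction was 2 without GFP replicate 2 and 3 without GFP replicate 3 (6.55% and 7.45% of all tested genes). It was 4 without RfA1 replicate 1 or 3 (6.7% and 6.82%) and 5 with DESeq2 (9.98%). Without RfA1 replicate 2 it was 12 (34.9% of all tested genes), of which all but CRELD2 and SDF2L1 were higher. The highest were DNAJB9, a co-chaperone, at 0.66 and HERPUD1 and DNAJC3, which serve degradation and folding, at 0.32 each (adjusted p = 0.0981, 0.220 and 0.264 from edgeR's test). After the GC correction DNAJB9 and HERPUD1 passed, at 0.56 and 0.30 (adjusted p = 0.0127 and 0.0136 from edgeR's test). Without RfA1 replicate 2 the number past the adjusted p was 8 (6 higher and 2 lower), in a fit that called 20.1% of all tested genes. A difference between these genes and the ATF4 arm was not tested.

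**Figure D5:**
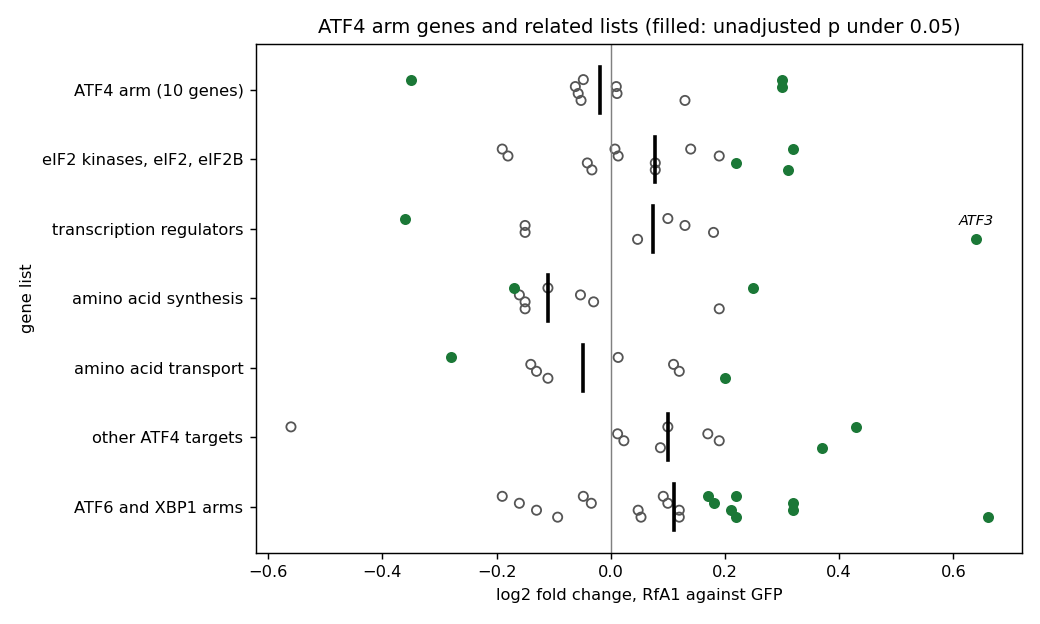
Log2 fold change between RfA1 and GFP cells (x axis) of each tested gene in the ATF4 arm and in the other lists (rows), with filled points for an unadjusted p under 0.05 and a black line for the median of the list. ATF3, at 0.64, is the 1 gene past the adjusted p of 0.05, and the points of the ATF4 arm lie on both sides of 0 with a median of -0.019.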

How the data were processed

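RNA-seq of 3 GFP and 3 RfA1 libraries was used, grouped by the sample titles. The authors deposited 1 table of estimated counts, TPM and FPKM per gene and library, with group averages, and of these the averages and the FPKM of the authors were not used. The submitters' processing notes name HISAT and GRCh38.p13, and the counting tool, annotation and strand setting are not given in the sources used here. Estimated counts, of which 7.39% to 8.02% per library are not whole, were rounded. Genes were filtered by filterByExpr (minimum count 10, minimum total 15), normalised by TMM and tested with edgeR 4.0.16 (robust quasi-likelihood, two-sided, Benjamini-Hochberg over 13002 genes, threshold 0.05) in R 4.3.3. The study's methods state no RNA-seq test. Intervals are at 95% from the fit. Common dispersion gave a coefficient of variation of 8.83%.

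Alternatives were a replicate block, DESeq2 1.42.0 (independent filtering off), scaling by the upper quartile or by total counts, no filter, a minimum of 10 counts in each sample, limma 3.58.1 on log2(TPM + 1), each library left out, and a GC correction with and without the block. The correction fitted a spline (5 degrees of freedom) per library on the GC content of the longest GENCODE release 29 transcript, found for 99.3% of tested genes. Scripts were tested on simulated data with 200 changed genes.

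The 10 genes and all lists were chosen with earlier results of these data known. All 10 were named, and in each list the genes past the adjusted p or else the 3 with the smallest p. Same-numbered libraries deviated together with correlations of 0.166, 0.321 and -0.143 across genes, so the numbers were not taken to pair them. Figures were drawn with matplotlib 3.10.9.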

Additional observations from a re-analysis of the deposited data

How the results depend on the processing

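All 10 genes kept a log2 fold change between -0.42 and 0.42 in each of 15 alternatives. PPP1R15A (0.21 to 0.42), DDIT4 (0.19 to 0.42), PSAT1 (0.044 to 0.24) and CHAC1 (-0.42 to -0.19) kept their direction in all 15. With the replicate block, 3 of the 10 genes passed the adjusted p (PPP1R15A, CHAC1 and DDIT4, with adjusted p = 0.0241, 0.0418 and 0.0438 from edgeR's test), as did 4.81% of all tested genes. The number was 2 (PPP1R15A and DDIT4) with the GC correction, which called 1.45% of all tested genes. The same 2 passed with that correction and the block, which called 3.53%. With 1 library left out the number was 0 to 2, and 0% to 20.1% of all tested genes were called. The number at an unadjusted p was 2 to 4 in all alternatives, while 6.55% to 34.9% of all tested genes passed. It was 4 without RfA1 replicate 2, the fit with 34.9%. The libraries share only a replicate number, so the block is not a paired analysis.

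Genes near 0 changed sign without a call. With limma-trend on TPM, the GC correction, and the correction with the block, ATF4 was at 0.0027, 0.037 and 0.037, TRIB3 at 0.049, 0.10 and 0.10, and SESN2 at 0.0091, 0.078 and 0.081. With the correction alone and with the block, ASNS was at -0.019 both times and VLDLR at -0.063 and -0.059. With 1 library left out, ASNS ranged from -0.042 to 0.10, VLDLR from -0.071 to 0.10 and DDIT3 from -0.20 to 0.021.

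Over all tested genes, 10 passed the adjusted p, against 33 with DESeq2, 6 with upper-quartile normalisation, 20 without a filter, 4 with limma-trend, 625 with the replicate block, 189 with the GC correction, 459 with both, and 0 to 2636 with 1 library left out (2636 without RfA1 replicate 2). At an unadjusted p, 1812 passed, against 3071 with the block and 857 to 4580 with 1 library left out. Of the other 47 ATF4 arm genes, 11 passed the unadjusted p, against 18 with the block, 17 with the GC correction, 19 with both, and 4 to 26 with 1 library left out. Past the adjusted p with the replicate block were ATF3, CDKN1A, EIF2S1, NUPR1 and TXNIP (5 of the 47) and DNAJB9, HERPUD1 and DNAJC3 (3 of the 20 ATF6 and XBP1 genes, adjusted p = 0.0058, 0.0147 and 0.0294 from edgeR's test). The cause of these differences was not tested. Among the 10 genes, VLDLR had the fewest counts, 112 to 144 per library.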
